A study of Mus musculus with 8 samples.

Results

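The 9 genes described here are Cx3cr1, P2ry12, Tmem119, Csf1r, Trem2, Ctss, C1qa, C1qb and C1qc, which are read in the mouse brain as genes of resting ("homeostatic") microglia and of the first component of complement. They were chosen by name and not by their measured values, although earlier results of these data were known, and are 9 of the 55536 genes counted. RNA was taken from the frontal cortex of 8-week-old mice, in 4 wild-type (WT) libraries and 4 libraries of HAR123-KO mice. In the HAR123-KO mice the mouse counterpart of HAR123, a noncoding enhancer within the Smg6 gene whose human version evolved fast, was removed from the germ line by CRISPR-Cas9 editing of C57BL/6J zygotes. The deletion is constitutive, not restricted to microglia, both genotypes were on the C57BL/6J background, and the labels give neither the sex of the mice nor the number of founder lines. The study describes the WT mice as littermates of the HAR123-KO mice. Neither it nor the labels say outright that the 4 libraries of a genotype came from separate animals, so the p-values below measure the spread between these libraries, which may be technical. RNA came from whole tissue, in which microglia are one cell type among many, so fewer microglia and less of an RNA in each microglial cell cannot be told apart.

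Microglia are the resident macrophages of the brain and depend on the receptor Csf1r for survival. At rest they survey the tissue through surface receptors such as P2ry12, which senses purine nucleotides, and Cx3cr1, which binds the neuronal chemokine Cx3cl1, and the sensing genes are known to be turned down when microglia respond to damage, while Trem2 signals in that response. Microglia are also the main source in the brain of C1q, the recognition molecule of the classical complement pathway, which is assembled from chains encoded by C1qa, C1qb and C1qc and can tag synapses for removal.

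Much of the transcription of microglial genes depends on PU.1 (encoded by Spi1), a factor of the ETS family that binds purine-rich sites with a GGAA core. Stretches upstream of 3 of the 9 genes are shown because they hold GGAAGT, a longer motif around that core, in the sequence next to the measured gene. RefSeq promoter sequences (build GRCm38.p6) were matched by symbol for 6 of the 9 genes, namely Cx3cr1, P2ry12, C1qb, C1qc, Trem2 and Ctss. The motif GGAAGT or its reverse complement ACTTCC, searched in the 250 bases before the start on both strands and chosen after the data had been seen, was present for P2ry12, C1qb and C1qc, with 1 match each. It was present in 6485 of all 32851 RefSeq promoters (19.7%). The longer AGGAAGT, which contains the first motif, was present for the same 3 genes and in 7.69% of all promoters, and GAGGAAGT, which contains both, was present for C1qc and in 2.44% of all promoters. These matches describe letters, not bound sites. The GGAA core alone was not searched in any of the promoters, and further copies of it in the printed stretches are not in capitals. Each stretch is written 5′ to 3′ along the minus strand, on which all 3 genes are transcribed, with the match in capitals, which begins 51 bases before the start for P2ry12 (chr3:59262986-59263085), 53 before it for C1qb (chr4:136886201-136886300) and 195 before it for C1qc (chr4:136893066-136893164). The RefSeq start used for P2ry12 lies 114 bases upstream of the gene span in the annotation used for counting, and that of C1qb 13 bases upstream of it. That of C1qc lies 151 bases inside the span, so its match begins 44 bases before the annotated gene.
P2ry12: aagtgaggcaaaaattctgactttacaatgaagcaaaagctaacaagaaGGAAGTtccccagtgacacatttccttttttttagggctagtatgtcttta
C1qb: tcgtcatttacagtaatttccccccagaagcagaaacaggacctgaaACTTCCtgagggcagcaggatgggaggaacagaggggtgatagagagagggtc
C1qc: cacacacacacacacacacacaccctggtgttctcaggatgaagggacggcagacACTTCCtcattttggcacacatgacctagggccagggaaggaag

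Total counts ran from 13528251 to 17051001 per library. Between 55.1% and 58.0% of them fell on Gm42418, a noncoding gene over ribosomal RNA sequence, so that nuclear protein-coding genes held 2786320 to 3732172 counts. In that share HAR123-KO replicate 4 (57.4%) stood apart from the other HAR123-KO libraries (55.1% to 55.7%) and lay within the WT range (56.8% to 58.0%). Together the 9 genes held 872 to 1294 counts per library, and single genes held as few as 25 (Trem2) and as many as 393 (Csf1r). Counting error alone was thus between 5.71% (Csf1r) and 17.6% (Trem2) of a gene's count, which bounds the change that could be seen. Levels below are normalised counts, that is counts divided by the size factor of the library.

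The first question was whether the genes that mark resting microglia and make C1q differed between HAR123-KO and WT frontal cortex. None of the 9 genes passed the threshold that the study used for this tissue, an adjusted p under 0.05 with an absolute log2 fold change over 0.5 in DESeq2, which 0.298% of the 12758 genes with an adjusted p passed. None had an adjusted p under 0.05 at any fold change (1.69% of all genes tested), and the smallest adjusted p among the 9 was 0.654, for Csf1r. At an unadjusted p under 0.05 DESeq2 counted 0 of the 9 genes (8.78% of all genes tested), limma-voom 1 (Csf1r, beside 12.7% of all genes it tested) and the edgeR quasi-likelihood test 2 (Csf1r and Cx3cr1, beside 12.8%), and neither of the latter tools gave any of the 9 an adjusted p under 0.05. The normalised counts of the genotypes were fully apart for 0 of the 9 genes, against 7.67% of all genes tested.

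The fitted change was below 0 for 6 of the 9 genes and above 0 for Tmem119, C1qb and Ctss. The median log2 fold change of the 9 was -0.06, beside -0.002 over all genes tested. The precision still set limits to what may have been missed. Over the 9 genes the 95% intervals of the fold change of HAR123-KO over WT reached from 0.686 (lower bound for Trem2) to 1.46 (upper bound for Tmem119), so that in this fit the interval of each of the 9 genes excluded a rise or a drop of 1.5-fold. Alternative fits moved the estimates (the log2 fold change of Tmem119 was 0.329 without WT replicate 4), and their intervals are not given. The interval was narrowest for Csf1r (0.824 to 1.01) and widest for Trem2 and Tmem119, and a difference inside the interval of its gene could not be told from 0 at this depth.

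**Figure D1:**
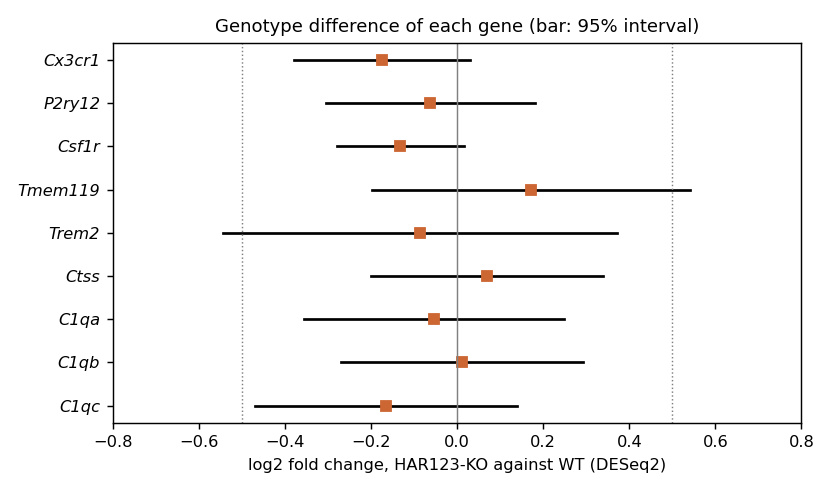
Log2 fold change (HAR123-KO over WT) of each of the 9 genes with its 95% interval from DESeq2, and dotted lines at a change of 0.5 either way. Every interval crosses 0, and the estimates lie between -0.17 and 0.17.

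Among the surface receptors, Cx3cr1 (ENSMUSG00000052336, chr9:119901616-120069879 on GRCm38) had normalised counts of 159.9, 169.9, 190.6 and 190.4 in WT replicates 1 to 4. In the HAR123-KO replicates they were 173.0, 170.2, 136.5 and 153.1. HAR123-KO replicates 3 and 4 lay below every WT library, whereas HAR123-KO replicates 1 and 2 lay within the WT range. The means were 177.7 ± 15.4 and 158.2 ± 17.0 (mean ± SD, n = 4 each), and the log2 fold change was -0.17 ± 0.10 (DESeq2 standard error, adjusted p = 0.688).

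Csf1r (ENSMUSG00000024621, chr18:61100598-61132149), the receptor for Csf1 and Il34, was the most deeply counted of the 9. Its normalised counts were 293.8, 330.5, 333.0 and 311.3 in the WT libraries and 293.8, 274.8, 301.1 and 290.3 in the HAR123-KO libraries. HAR123-KO replicates 2 and 4 lay below every WT library, replicate 1 lay level with the lowest one, WT replicate 1, and replicate 3 lay within the WT range. The log2 fold change was -0.13 ± 0.08 (DESeq2 standard error, adjusted p = 0.654), with a 95% interval of -0.28 to 0.02. Csf1r shares 873 exon bases with Hmgxb3 on the other strand, and since the strand setting of the counting was not stated, counts could include reads of that gene.

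P2ry12 (ENSMUSG00000036353, chr3:59216272-59262871) had 120.5, 139.0, 133.0 and 100.6 normalised counts in the WT libraries and 99.3, 130.3, 123.3 and 120.2 in the HAR123-KO libraries. HAR123-KO replicates 2, 3 and 4 lay inside the WT range and HAR123-KO replicate 1 lay just under its lowest value. The log2 fold change was -0.06 ± 0.12 (DESeq2 standard error, adjusted p = 0.978).

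Trem2 (ENSMUSG00000023992, chr17:48346401-48354147), a lipid-sensing receptor that signals through the adaptor Tyrobp, had the lowest count of the 9. The WT libraries held 34.9, 27.8, 39.0 and 28.9 normalised counts and the HAR123-KO libraries 34.8, 27.6, 34.3 and 26.6. In both genotypes replicates 1 and 3 lay above replicates 2 and 4, and the groups overlapped over nearly their whole range. The log2 fold change was -0.09 ± 0.23 (DESeq2 standard error, adjusted p = 0.984), the least precise of the 9.

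Tmem119 (ENSMUSG00000054675, chr5:113793729-113800516) encodes a membrane protein used to tell microglia from other macrophages. It had 47.3, 43.2, 42.4 and 65.3 normalised counts in the WT libraries and 51.2, 59.9, 44.9 and 67.0 in the HAR123-KO libraries. Replicate 4 was the highest library in both genotypes, and the groups overlapped. The log2 fold change of 0.17 ± 0.19 (DESeq2 standard error, adjusted p = 0.918) was the highest of the 9, and it ranged from 0.07 to 0.33 when single libraries were left out.

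Ctss (ENSMUSG00000038642, chr3:95526786-95556403) encodes cathepsin S, a lysosomal and secreted cysteine protease that processes the invariant chain of MHC class II. Its normalised counts were 90.1, 84.4, 100.0 and 99.5 in the WT libraries and 104.4, 97.0, 114.5 and 75.5 in the HAR123-KO libraries. HAR123-KO replicate 3 held the highest level of the 8 libraries and replicate 4 the lowest, so that the WT libraries lay inside the HAR123-KO range. The log2 fold change was 0.07 ± 0.14 (DESeq2 standard error, adjusted p = 0.978).

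**Figure D2:**
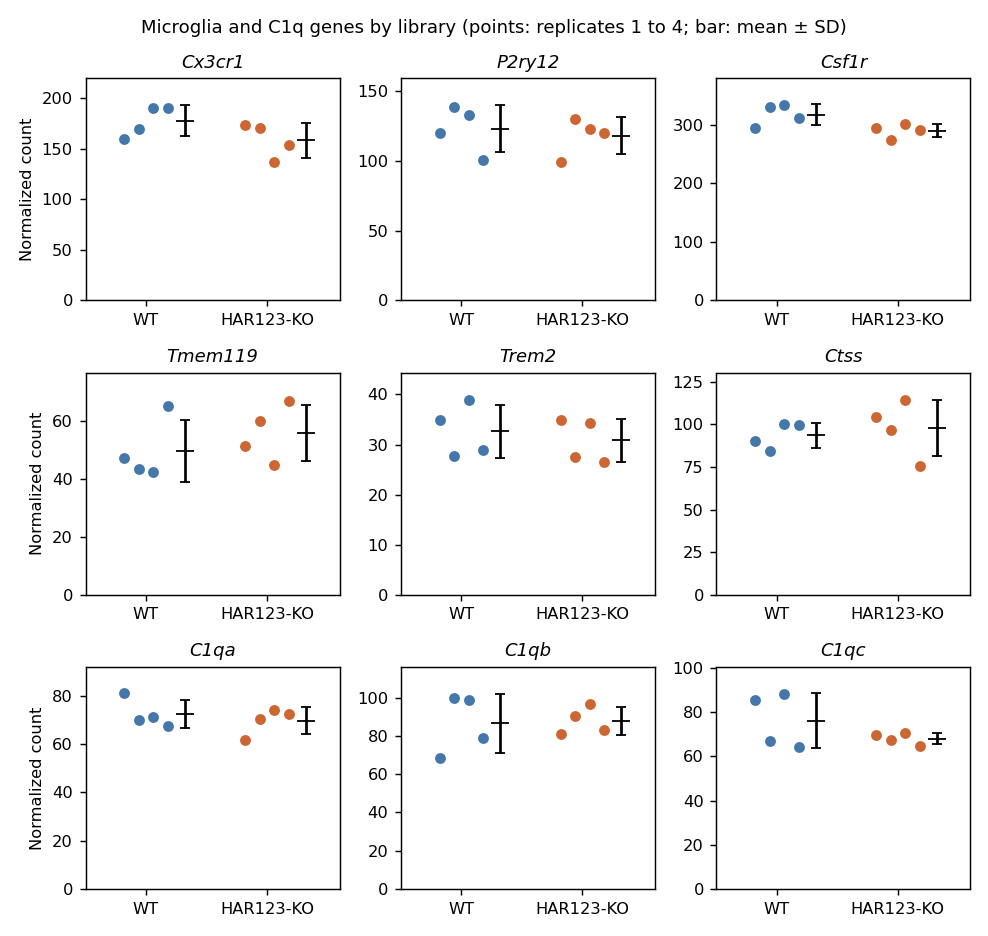
Normalised counts of the 9 genes in each of the 8 libraries, one panel per gene, with the mean and SD of each genotype. The genotypes overlap in all 9 panels, and Csf1r shows the narrowest spread relative to its level among the WT libraries.

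The genes for the C1q chains lie together on chromosome 4, in the order C1qb, C1qc and C1qa within 18.7 kb (chr4:136880129-136898803), with gaps of 3616 and 2851 bases between neighbours, and all on the minus strand. C1qa (ENSMUSG00000036887) had 81.1, 70.0, 71.2 and 67.4 normalised counts in the WT libraries and 61.4, 70.4, 74.0 and 72.3 in the HAR123-KO libraries. WT replicate 1 was the highest and HAR123-KO replicate 1 the lowest, and the other 6 libraries lay between 67.4 and 74.0. Its log2 fold change was -0.05 ± 0.15 (DESeq2 standard error, adjusted p = 0.985).

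C1qb (ENSMUSG00000036905) had 68.7, 99.9, 99.1 and 79.2 normalised counts in the WT libraries and 80.9, 90.3, 96.8 and 83.0 in the HAR123-KO libraries. All 4 HAR123-KO libraries lay inside the WT range, and the means, 86.7 ± 15.4 and 87.8 ± 7.29 (mean ± SD, n = 4 each), were the closest of the 9 genes, with a log2 fold change of 0.01 ± 0.14 (DESeq2 standard error, adjusted p = 0.998). C1qc (ENSMUSG00000036896) had 85.6, 66.9, 88.1 and 64.2 in the WT libraries and 69.6, 67.5, 70.4 and 64.9 in the HAR123-KO libraries. The HAR123-KO libraries again lay inside the WT range, with WT replicates 1 and 3 above all of them. The log2 fold change of C1qc was -0.17 ± 0.16 (DESeq2 standard error, adjusted p = 0.889).

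Because C1q is built from equal numbers of the A, B and C chains, the balance of their RNAs was also described, per kb of exon so that genes of different length could be set side by side. Of the summed level per kb of the chains, C1qb made up 42.1% ± 5.72 in WT and 44.1% ± 1.21 in HAR123-KO, C1qa 37.0% ± 3.86 and 36.6% ± 1.63, and C1qc 20.9% ± 2.71 and 19.3% ± 1.29 (mean ± SD, n = 4 each). The order C1qb, C1qa, C1qc held in 7 of the 8 libraries. In WT replicate 1, C1qa (77.9 normalised counts per kb) stood above C1qb (63.1). The distance of C1qc from the other chains depended on length: 2 transcripts are annotated, and on the 1203 bases of its principal transcript rather than the 1931 bases of all its exons the level was 60.0 instead of 37.4 normalised counts per kb, with the mean still below those of C1qa (68.2) and C1qb (80.2). On that length C1qc was the lowest chain in 6 of the 8 libraries, and it stood above C1qb in WT replicate 1 (71.1 against 63.1) and above C1qa in WT replicate 3 (73.2 against 68.4). Counted without division by length, the share of C1qc was 32.3% ± 3.63 in WT and 30.3% ± 1.72 in HAR123-KO, beside 30.9% ± 2.99 and 30.8% ± 1.58 for C1qa.

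**Figure D3:**
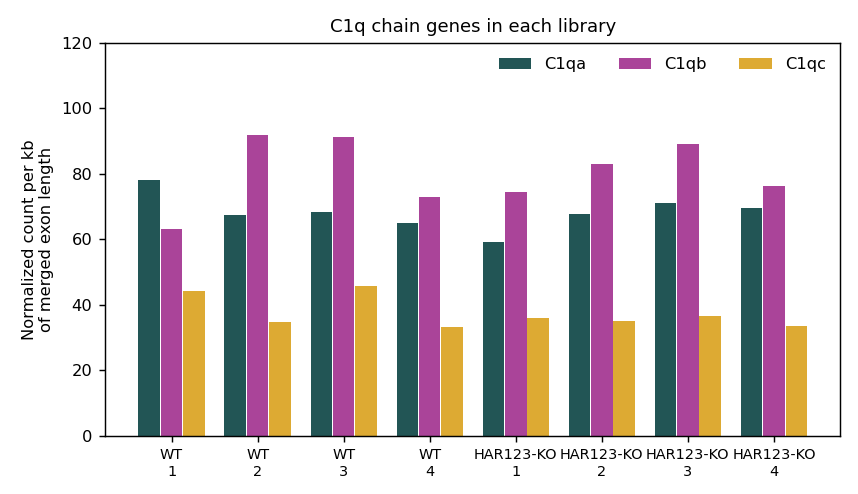
Normalised counts per kb of exon of C1qa, C1qb and C1qc in each of the 8 libraries. On these lengths C1qc is lowest in all 8 libraries and C1qb highest in 7, and in WT replicate 1 C1qa lies above C1qb.

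Over all 8 libraries and per kb of all annotated exons, the mean levels ran from C1qb (80.2 normalised counts per kb) through Ctss (70.4), C1qa (68.2), Csf1r (52.6), P2ry12 (47.4), C1qc (37.4), Cx3cr1 (37.3) and Tmem119 (22.7) to Trem2 (6.42). Between neighbours in that order, the ranges over the libraries did not overlap at the steps from C1qa to Csf1r, from Cx3cr1 to Tmem119 and from Tmem119 to Trem2. At the other 5 steps the ranges overlapped, although within single libraries P2ry12 stood above C1qc in 8 of 8 and Csf1r above P2ry12 in 7 of 8. Trem2 has 4 annotated transcripts, and with the 1088 bases of its principal transcript in place of the 4946 bases of all exons its level was 29.2, above the 23.5 of Tmem119. On principal transcripts, a length chosen after the data had been seen, the ranges of all neighbours overlapped, with P2ry12 above Cx3cr1 in 8 of 8 libraries. Among protein-coding genes with detected counts, the levels per kb of all annotated exons of the 9 genes stood between the 37.4th percentile (Trem2) and the 89.9th (C1qb). The percentile of Trem2 rests on this length, and percentiles on principal transcripts were not taken.

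The spread within a genotype was near counting error for several genes. For Csf1r the SD was 5.77% of the mean in WT and 3.82% in HAR123-KO, where counting error alone gives 5.71%, and for C1qa it was 8.26% and 8.04%, where counting error alone gives 11.8%. The ratio of observed to counting variance was highest for Ctss in HAR123-KO (2.78) and C1qb in WT (2.61) and lowest for C1qc in HAR123-KO (0.0906). After each genotype was centred on its mean, the 36 pairs of genes had a median correlation of -0.02 over the 8 libraries, with 17 of 36 above 0 and a range from -0.77 (Cx3cr1 and C1qa) to 0.83 (C1qc and Trem2). These values describe 8 libraries that share size factors, at counts where much of the spread is counting error.

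Summed over the 9 genes, HAR123-KO libraries held 303 to 316 CPM, counted over nuclear protein-coding genes alone (mean 310.1 ± 6.04, SD, n = 4) and WT libraries 313 to 347 (327 ± 14.5). The HAR123-KO mean was 0.949 of the WT mean, and the ranges overlapped only through WT replicate 1 (313). Relative to all counts, which include Gm42418, the ratio was 0.974. No test was made on a sum over chosen genes. The 5 protein-coding genes, out of 8799 with at least 50 normalised counts, whose levels correlated most with the sum over the 8 libraries were Pcdhga5 (r = 0.954), Midn (0.950), Zfp329 (0.948), Zbtb40 (0.947) and Spock2 (0.940). Pcdhga5 shares exons with other protocadherins, and of the other microglial genes the first in that order was Fcrls, at rank 749 (r = 0.579). The 5 named genes are the highest of 8799 values over 8 libraries, and genotypes were not centred for them. Whether such values exceed chance was not tested.

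A list of 26 other microglial genes was examined beside the 9. Of the 20 with an adjusted p, 0 rose and 0 fell at an adjusted p under 0.05 in DESeq2, and 1, Fcrls, had an unadjusted p under 0.05. The edgeR and limma-voom fits also called 0 of 23 tested, with 2 at an unadjusted p under 0.05 in each. Their median log2 fold change was -0.06 (7 above 0 and 13 below), and their summed level was 1460 to 1532 normalised counts in WT and 1423 to 1487 in HAR123-KO. Mertk, a receptor for engulfment of dying cells that astrocytes also carry, had a log2 fold change of 0.05 (DESeq2 adjusted p = 0.984). Fcrls, an Fc receptor-like microglial gene, had 69.6 ± 4.25 in WT and 54.7 ± 9.11 in HAR123-KO, and its log2 fold change of -0.36 ± 0.17 (standard error) did not pass the DESeq2 test (adjusted p = 0.479).

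Laptm5, a lysosomal membrane protein of haematopoietic cells, varied more in HAR123-KO than any of the 9 genes. Its normalised counts in HAR123-KO replicates 1 to 4 were 193.5, 117.9, 190.2 and 104.2, beside a WT mean of 169.1 ± 9.02 (SD, n = 4). Replicates 1 and 3 lay above and replicates 2 and 4 below the WT mean, and the log2 fold change of -0.16 ± 0.23 (standard error) had a DESeq2 adjusted p of 0.956. The transcription factor Spi1 itself was thinly counted, at 9.90 ± 3.62 normalised counts in WT and 8.45 ± 2.91 in HAR123-KO, and received no adjusted p.

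The next list held ligands of these receptors and proteins that act on ligands or proteases. Of 10 listed, 9 had an adjusted p, of which 0 rose and 1 fell. That gene was Cst3 (ENSMUSG00000027447, chr2:148871722-148875692), which encodes cystatin C, a secreted inhibitor of cysteine cathepsins including cathepsin S that is made by glia and other cells. Cst3 had 1672, 1667, 1599 and 1772 normalised counts in the WT libraries and 1356, 1348, 1291 and 1477 in the HAR123-KO libraries. Each HAR123-KO library lay below each WT library. Cst3 fell by 0.29 ± 0.04 on the log2 scale (DESeq2 standard error, adjusted p = 2.38e-10), and its adjusted p stayed under 0.05 in all 15 alternative fits (highest 0.0249).

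The other ligands did not pass the test. Cx3cl1, the neuronal ligand of Cx3cr1, had 2564 ± 36.4 normalised counts in WT and 2437 ± 79.6 in HAR123-KO (mean ± SD, n = 4 each), with no overlap between the genotypes, a log2 fold change of -0.07 ± 0.03 (standard error) and a DESeq2 adjusted p of 0.375. For the ligands of Csf1r the adjusted p was 0.931 (Csf1, log2 fold change -0.14) and 0.987 (Il34, 0.04). Adam10, a protease that sheds surface proteins, had a log2 fold change of 0.07 (adjusted p = 0.918).

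Of 13 lysosomal cathepsins and related lysosomal genes, the family of Ctss, 12 had an adjusted p and 0 passed 0.05 in DESeq2, with a median log2 fold change of 0.03. At an unadjusted p under 0.05 there was 1, Ctsz, with a log2 fold change of 0.33 ± 0.16 (standard error), and edgeR and limma-voom called 0 with 2 at an unadjusted p under 0.05 in each. The most abundant, Ctsb, Ctsd and Lamp1, had log2 fold changes of -0.04, 0.02 and -0.01. Summed, the list held 3565 to 3697 normalised counts in WT and 3567 to 3754 in HAR123-KO.

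Of 20 partners of Trem2 and genes of activated microglia, 9 had an adjusted p and 0 passed 0.05, 1 (Apoe) had an unadjusted p under 0.05, and 5 had a mean under 1 normalised count, among them Ccl4, which had no count in any library. The 9 had a median log2 fold change of -0.01, and edgeR and limma-voom called 0 of 10 tested, with 2 at an unadjusted p under 0.05 in each. The genotypes were fully apart for 1 of these 9 (7.67% of all genes tested), Lpl, with all HAR123-KO libraries above WT. Lpl had 62.8 ± 5.77 normalised counts in WT and 75.9 ± 5.31 in HAR123-KO (mean ± SD, n = 4 each; DESeq2 adjusted p = 0.631). Tyrobp, the signalling partner of Trem2, had 19.5 ± 2.02 normalised counts in WT and 18.5 ± 4.03 in HAR123-KO (mean ± SD, n = 4 each; DESeq2 adjusted p = 0.99). Apoe, a lipid carrier made mostly by astrocytes in resting brain, had a log2 fold change of -0.07 ± 0.03 (DESeq2 standard error, adjusted p = 0.348). Cd9, a tetraspanin of activated microglia and oligodendrocytes, had one of 0.17 (adjusted p = 0.869).

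Beyond C1q, 22 of 23 further complement genes had a row under the symbol searched (not C5) and 8 had an adjusted p, of which 1 rose and 0 fell. Clu, which encodes clusterin, a chaperone and inhibitor of the terminal complement complex made by astrocytes, rose from 1633 ± 41.9 to 1785 ± 52.5 normalised counts (mean ± SD, n = 4 each; log2 fold change 0.13 ± 0.04 as estimate and standard error, DESeq2 adjusted p = 0.0179). Its adjusted p rose above 0.05 without WT replicate 2 (0.165), WT replicate 4 (0.125), HAR123-KO replicate 1 (0.105) or HAR123-KO replicate 3 (0.242). C4b, which is cleaved in the step after C1q, had 52.5 ± 2.53 in WT and 64.1 ± 7.75 in HAR123-KO (adjusted p = 0.691). C3, on which tagging of synapses depends, had a mean of 1.84 normalised counts and could not be judged at this depth.

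A further list held 16 synaptic genes with complement-related domains, made by neurons. Of 13 with an adjusted p, 2 rose and 1 fell, and limma-voom called the same 3 genes, edgeR these and Csmd2 (DESeq2 adjusted p = 0.14). The fitted change was below 0 for 9 of the 13 (median log2 fold change -0.08), and 7 had an unadjusted p under 0.05 in DESeq2, of which Csmd2, Nptx1, Nptx2, Nptxr and C1ql3 were lower. Sez6 rose from 747.6 ± 19.99 to 871.8 ± 34.6 normalised counts (mean ± SD, n = 4 each; log2 fold change 0.22 ± 0.05 as estimate and standard error, DESeq2 adjusted p = 0.000401), and its relative Sez6l2 rose by 0.16 ± 0.04 on the log2 scale (adjusted p = 0.0145). The call for Sez6l2 was lost without WT replicate 1 (adjusted p = 0.0975), WT replicate 2 (0.266), HAR123-KO replicate 2 (0.0808) or HAR123-KO replicate 3 (0.0889). Nptxr, the neuronal pentraxin receptor, fell by 0.17 ± 0.03 on the log2 scale, from 2446 ± 61.6 to 2173 ± 38.7 normalised counts (adjusted p = 8.78e-06), and its ligand Nptx1 had a log2 fold change of -0.09 (adjusted p = 0.394).

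**Figure D4:**
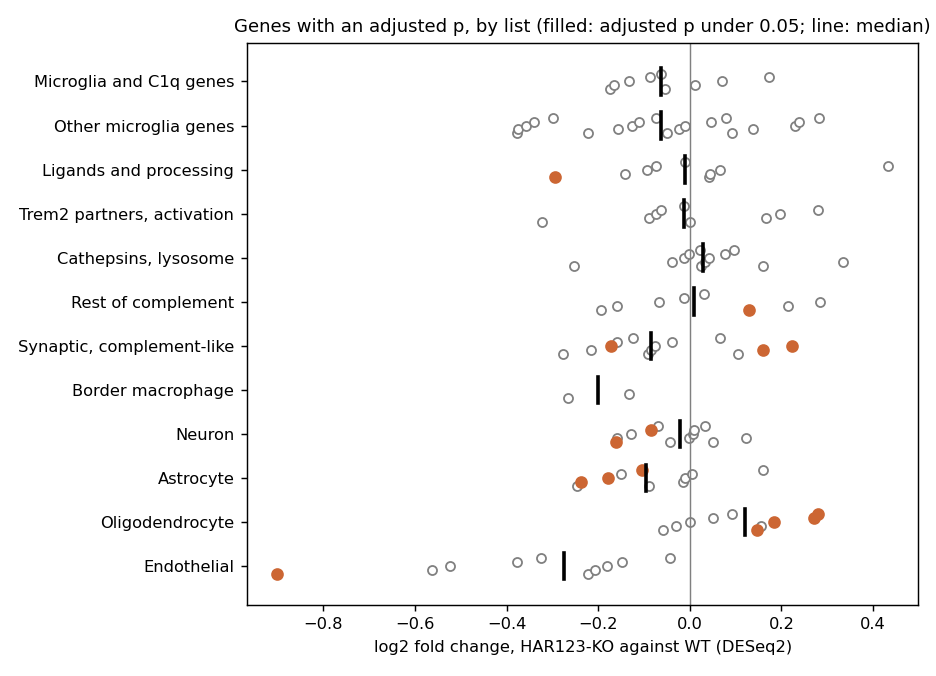
DESeq2 log2 fold change (HAR123-KO over WT) of each gene with an adjusted p, one line per list, with genes at an adjusted p under 0.05 filled and the median of each list as a black bar. No filled gene lies among the 9 genes, the 26 other microglial genes, the Trem2 partners or the cathepsins, and Cst3, Clu, Sez6, Sez6l2 and Nptxr are the filled genes in the ligand, complement and synaptic lists.

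Markers of other cells were measured beside these results. Border macrophages, which share Cx3cr1, Csf1r and C1q genes with microglia, were thinly represented: the summed level of 10 markers was 90.1 to 117 normalised counts in WT and 80.8 to 100.4 in HAR123-KO, 2 had an adjusted p, 0 passed the test, and 5 had a mean under 1. Among the 10, Mrc1 had a mean of 18.9 in WT and 17.1 in HAR123-KO, and Stab1 65.2 and 54.5 (DESeq2 adjusted p = 0.746). F13a1, a coagulation factor subunit carried by border macrophages, had raw counts of 12, 10, 18 and 13 in the WT libraries and 3, 11, 3 and 1 in the HAR123-KO libraries. HAR123-KO replicate 2 lay within the WT range and the others below it. DESeq2 gave F13a1 no adjusted p because of its low mean (with no independent filter it was 0.178, and with the replicate block 0.99995), whereas the adjusted p was 0.0222 in edgeR and 0.00966 in limma-voom, the 1 marker of this list that either tool called. The DESeq2 adjusted p was 0.0219 without HAR123-KO replicate 2, the library within the WT range. It was 0.318 without WT replicate 1 and 0.166 without WT replicate 2. The 12 blood leukocyte markers summed to 9.27 to 14.6 normalised counts in WT and 4.10 to 7.04 in HAR123-KO, with 10 of 12 at a mean under 1 and Cd8a at 0, so that these sums, which did not overlap, rest on a few counts per library.

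Lists for other cell types of the tissue held genes that changed. Astrocyte markers summed to 0.932 of WT in HAR123-KO (3 of 10 fell, namely Slc1a2, which made up most of the difference in the sum, Slc1a3 and Gja1), neuronal markers to 0.973 (2 of 12 fell, Slc17a7 and Camk2a, the markers that made up most of the difference in the sum) and endothelial markers to 0.791, from 542 to 593 in WT and 441 to 463 in HAR123-KO (1 of 10 fell, Vwf). All 10 endothelial markers had a fitted change below 0, and 4 of them, with Vwf, had an unadjusted p under 0.05 in DESeq2 (8.78% of all genes tested). Oligodendrocyte markers summed to between 15826 and 16343 normalised counts in WT and between 17956 and 18250 in HAR123-KO (4 of 10 rose, among them Mbp, Cnp and Cldn11). Among the other astrocyte markers Gfap had a log2 fold change of 0.16 (DESeq2 adjusted p = 0.558) and Aldoc one of -0.01. The neuronal markers did not share a direction: Rbfox3, Snap25, Syt1 and Map2 had log2 fold changes of 0.03, 0.01, 0.01 and -0.00, and Gad2 had one of 0.12, with all HAR123-KO libraries above WT (DESeq2 adjusted p = 0.432). Choroid plexus markers summed to 7.52 times WT (2 of 2 with an adjusted p rose, namely Ttr, which made up most of the difference in the sum, and Kl) and striatal projection neuron markers to 1.33 times (8 of 10 rose). In these lists edgeR and limma-voom each called 5 of 5 choroid plexus genes tested, and 10 and 9 of 10 striatal genes. The calls for Camk2a, Gja1, Cnp and, among the striatal genes, Drd1 were each lost when some single libraries were left out, and that for Cnp also with a minimum count (adjusted p = 0.0649) or with no independent filter (0.063). Kl had no adjusted p without WT replicate 3 or 4 or HAR123-KO replicate 1 or 4 and Vwf none without HAR123-KO replicate 4, and 21 to 23 of the 25 called list genes kept an adjusted p under 0.05 in each such fit. Camk2a was not called by edgeR (adjusted p = 0.0819), and edgeR and limma-voom also called Stmn2, whose DESeq2 adjusted p was 0.0572. Oligodendrocyte precursor and pericyte lists held 0 genes that passed the test in DESeq2, with 1 (Cspg4) and 2 (Rgs5 and Vtn) at an unadjusted p under 0.05. In the same lists limma-voom called 0 and edgeR called 1, Vtn. The sums of the 9 genes (0.949 of WT) and of the other microglial genes (0.984) overlapped between genotypes. For the 9 genes only WT replicate 1 (982) lay within the HAR123-KO range (953 to 996), and the other WT sums were 1007 to 1096. The ratio of the 9 genes lay between those of the astrocyte (0.932) and neuronal (0.973) markers, whose sums were far larger. No difference between lists was tested. The part of the other cell types in the values of the 9 genes, and in those of Cst3 and Clu, was not tested.

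**Figure D5:**
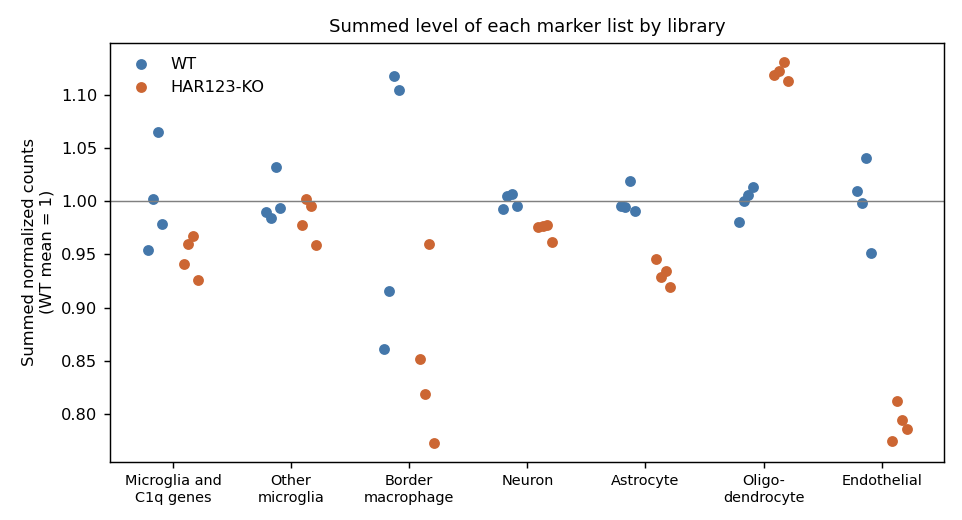
Summed normalised counts of 7 marker lists in each library, divided by the WT mean of that list, on a linear axis that does not start at 0, with one point per library. The genotypes overlap for the 9 genes (through WT replicate 1 alone), the other microglial genes and border macrophages. HAR123-KO lies below WT for neuronal, astrocyte and endothelial markers and above it for oligodendrocyte markers.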

How the data were processed

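The authors depleted ribosomal RNA, made directional paired-end libraries, aligned the reads with STAR 2.5.2b to GRCm38 (Ensembl version 96) and deposited raw counts per gene summed over exons by featureCounts. The strand and multi-mapping settings of the counting are not given in the sources used here. Libraries were assigned to genotype and replicate from their titles, and no per-sample column was left unused (0). Symbols and exon lengths came from the GENCODE annotation of the same build.

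Genotypes were compared over all genes with the Wald test of DESeq2 1.42.0 (R 4.3.3), genotype as the only term, Benjamini-Hochberg adjustment and independent filtering tuned to 0.1, which left 12758 genes with a mean of at least 17.6 normalised counts. Alternatives were edgeR 4.0.16, limma-voom (limma 3.58.1), other size factors, another count filter or none, a stricter threshold, a replicate block and leaving out each library. Scripts were tested on simulated data. Within a genotype, the chi-square per degree of freedom of library pairs was 1.21 to 1.30, and across genotypes 1.58 to 1.72. Library pairs thus differed by more than sampling of one library, which does not tell whether they came from separate animals. PCR copies were not identified, so counting errors are lower limits.

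The genes and lists were chosen with earlier results of these data known. Named were the 9 genes, every list gene with an adjusted p under 0.05, the 3 highest per kb in the microglial and complement lists, and the 5 genes most correlated with the sum. Other genes (Fcrls, Laptm5's spread, Spi1, Csf1, Il34, Ctsz, Lpl, C3, F13a1's counts, Csmd2, Nptx2, C1ql3, Stmn2, Gfap, Rbfox3, Map2, Gad2, Ccl4, Cd8a, Cspg4, Rgs5 and Vtn) were named after their values were seen. A few genes that this rule names are not reported here.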

Additional observations from a re-analysis of the deposited data

Results flagged for a closer look

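In 26 groups of 4 libraries, the level of each of the 9 genes, their summed level and each C1q share in each genotype, the gap of the highest or lowest library to its neighbour was compared with the whole range (Dixon's 95% critical value), and 1 group passed where chance alone gives about 1.3. That library was HAR123-KO replicate 1, in which C1qc made up 21.3% of the C1q level per kb, where HAR123-KO replicates 2, 3 and 4 lay between 18.6% and 18.8%, and WT libraries between 17.9% and 23.9%.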

How the results depend on the processing

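Under all 15 alternatives 0 of the 9 genes had an adjusted p under 0.05, and the smallest was 0.328 (Csf1r, edgeR). Of 135 single-gene values, 127 kept their direction and 8 turned, all 8 when 1 library was left out: the log2 fold change then ranged from -0.0872 to 0.000308 for C1qa, from -0.0802 to 0.0874 for C1qb, from -0.157 to 0.0203 for Trem2, from -0.147 to 0.0115 for P2ry12 and from -0.0181 to 0.17 for Ctss. Those of the other genes kept their sign, at 0.0744 (without HAR123-KO replicate 4) to 0.329 (without WT replicate 4) for Tmem119, -0.239 (without WT replicate 4) to -0.0796 (without WT replicate 3) for C1qc, -0.219 (without WT replicate 1) to -0.105 (without HAR123-KO replicate 3) for Cx3cr1 and -0.165 to -0.106 for Csf1r. In these fits the count of the 9 at an unadjusted p under 0.05 was 0 to 1 (1, Csf1r, without WT replicate 1), and edgeR gave 2 and limma-voom 1. Their median log2 fold change ranged from -0.14 (without WT replicate 4) to -0.000684 (without HAR123-KO replicate 1). Without HAR123-KO replicate 4 the filter left 5 of the 9 genes with an adjusted p, without WT replicate 3 it left 7 and without WT replicate 4 it left 8. Without division by exon length, C1qc made up 31.3% of the C1q chains instead of 20.1%.

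What the replicate numbers stand for is not stated. The deviations of same-numbered libraries correlated at -0.02 to 0.02 over 8807 genes, and those of other pairs at -0.03 to 0.03. Such values do not tell whether same-numbered libraries were littermates or were handled together. With the replicate block, the list genes at an adjusted p under 0.05 went from 25 to 8, Cst3 remained, and Clu, Sez6, Sez6l2 and Nptxr were lost. Over all genes 215 had an adjusted p under 0.05 and 38 passed the threshold, against 22 and 9 with the replicate block, 331 and 73 in edgeR, 290 and 55 in limma-voom, 133 and 30 without WT replicate 1, 18 past the threshold without WT replicate 3 and 11 without HAR123-KO replicate 4. Among the 9 genes depth limits Trem2 most, and the thinly counted list genes, such as Spi1 and C3, could not be judged.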
